A study of Rattus norvegicus with 6 samples.

Results

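The zinc finger protein genes of rat C6 glioma cells with and without AQP1 overexpression are the subject. They were chosen by name alone: a gene was a member if its symbol was Zfp or Znf followed by a number and at most 1 letter, and of genes sharing a symbol the one with the highest mean count was kept. In this way 236 of the 12121 listed genes were members. The pattern matched 241 listed genes, of which 5 were second genes of a repeated symbol, and 9 further symbols starting with Zfp or Znf, such as Zfp36l1 and Znfx1, fell outside it. The RefSeq annotation of the GRCr8 assembly holds 329 protein-coding symbols of this pattern, of which 225 were members under their present name. The files list genes with a mean TPM above 1 in at least 1 group, so members with few reads in both groups are not analysed here.

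The C6 line was derived long ago from a chemically induced rat glioma, and AQP1 is a water channel. RNA-seq covered 3 libraries from C6 cells that overexpress AQP1 (C6-AQP1) and 3 from C6 cells that do not (C6 control). According to the methods, the AQP1 sequence was carried by a vector with a CMV promoter and markers for green fluorescence and puromycin resistance, and no source used here says whether the sequenced control cells held the empty vector. No clone number, passage or separate culture is given for any library, so p-values rest on library-to-library spread, possibly only technical, and a difference between 2 cell populations cannot be told apart from an effect of AQP1. Gene values are RSEM expected counts, scaled here to normalized CPM, counts scaled to a common library total. CPM is not corrected for transcript length, so levels are compared between groups. Where genes are ordered or binned by CPM, the order is one of counts and not of RNA level.

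Most zinc finger proteins of this naming carry tandem C2H2 fingers. These are small folds in which pairs of cysteines and histidines hold a zinc ion, and they can bind DNA. The largest subfamily joins the fingers to a KRAB domain, which recruits Trim28 and through it the histone methyltransferase Setdb1, heterochromatin proteins and the NuRD deacetylase, and which is known for silencing transposable elements. KRAB genes lie in tandem clusters that grew by duplication. Some members are named for other zinc folds and bind RNA, modify proteins or serve as adaptors.

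As a check of the labels, Aqp1 had 1052, 1064 and 1057 CPM in the C6-AQP1 libraries and 346.6, 351.6 and 349.1 CPM in the controls. Library totals ranged from 19054251 to 52725877 counts, and in both groups replicate 1 had the lowest total. Of 8 glial and C6 markers, 6 were listed, with summed levels of 6438 to 6690 CPM in C6-AQP1 and 4673 to 4806 CPM in control libraries, and Fabp7 and Aldh1l1 were not listed. Most of this sum came from Vim, Nes and Cspg4. All 6 rose, with log2 differences from 0.07 for Cspg4 to 3.575 for Gfap. Gfap averaged 166.9 ± 6.72 CPM in C6-AQP1 and 14.04 ± 0.0652 CPM in control libraries (SD, n = 3). None of 5 microglial and 5 endothelial markers was listed. The 4 listed neuronal markers summed to 268.4 to 273.6 CPM in C6-AQP1 and 85.08 to 88.4 CPM in control libraries, mostly from Map2, and Rbfox3 was not listed. Among them Syt1 averaged 10.7 ± 0.302 CPM in C6-AQP1 and 0.166 ± 0.0645 CPM in control libraries (SD, n = 3), a log2 difference of 6.11. That of Snap25 was 2.87, that of Map2 1.63 and that of Tubb3, which did not pass, 0.14. The 2 of 4 fibroblast markers that were listed summed to 45.07 to 50.56 CPM in C6-AQP1 and 14.04 to 15.37 CPM in control libraries. The part of these differences in the results on zinc finger genes was not tested.

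Zinc finger protein genes were mostly higher in C6-AQP1 cells. Of the 236 members, 180 rose, 24 fell and 32 did not pass an adjusted p of 0.05 in edgeR's quasi-likelihood test. Rises made up 76.3% of the members and 40.8% of all listed genes, and falls made up 10.2% of the members and 40.7% of all listed genes. A fold change above 2, which with the same p defines a DEG, was reached upward by 51 members, or 21.6%, against 9.74% of all listed genes. Downward it was reached by 0 members, against 4.35% of all listed genes. With edgeR this count was 0 at any p cutoff, since the lowest log2 fold change of a member was -0.6. DESeq2 and limma-voom gave 0 as well. The median log2 fold change was 0.56 over the members and 0.00 over all listed genes. In the plain sense of fold, the median member was 1.47-fold higher.

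A higher summed level in bulk RNA does not tell more RNA per cell from a larger share of cells that express a gene. The spread of the family lay mainly on 1 side of zero. Between their quartiles the members lay between log2 fold changes of 0.18 and 0.95, an interquartile range of 0.77, while all listed genes lay between -0.40 and 0.47, a range of 0.87. The standard deviation was 0.56 over the members and 0.89 over all listed genes. The lowest value was -0.60 and the highest 2.26. Some 4 members lay below -0.5, 14 between -0.5 and -0.25 and 15 between -0.25 and 0, together 33 of 236. On the other side 42 lay between 0 and 0.25, 33 between 0.25 and 0.5, 76 between 0.5 and 1, 39 between 1 and 1.5 and 13 above 1.5. The typical standard error of a member was 0.08 (median), against the standard deviation of 0.56 between members.

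**Figure D1:**
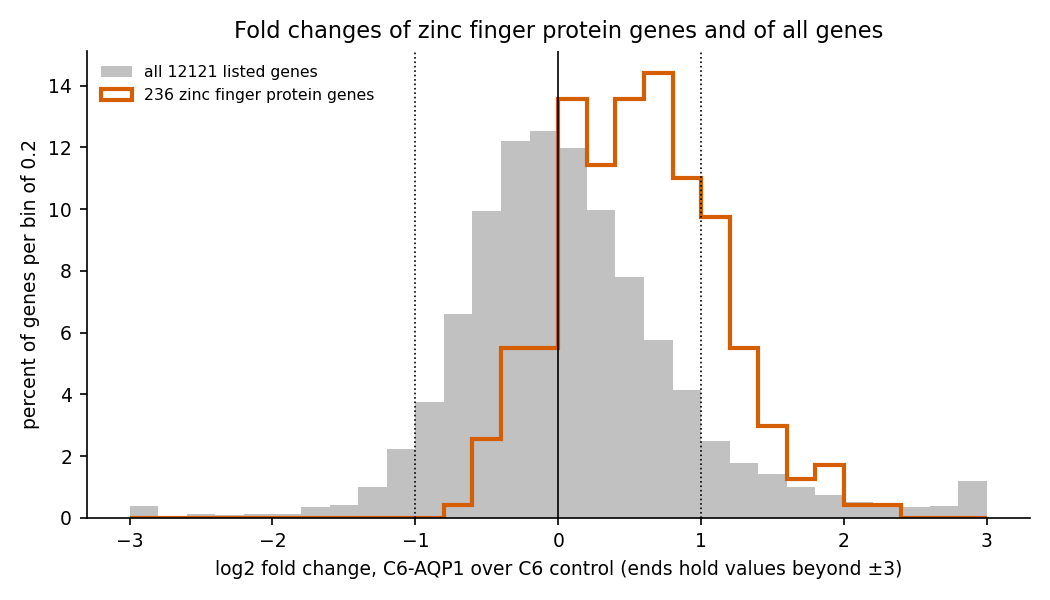
Distribution of log2 fold changes between C6-AQP1 and C6 control cells, in percent of genes per bin of 0.2, for the 236 zinc finger protein genes (orange line) and all 12121 listed genes (grey). The grey distribution is centred on 0 and the orange one lies to its right, with a median of 0.56, and dotted lines mark 2-fold.

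Each of the 3 C6-AQP1 libraries showed the shift. Against the mean of the controls, the median member had a log2 ratio of 0.52, 0.57 and 0.54 in C6-AQP1 replicates 1, 2 and 3, and of 0.00, 0.00 and 0.01 in the control libraries. Members took 0.6225%, 0.6238% and 0.6231% of the counts in the C6-AQP1 libraries and 0.4612%, 0.4622% and 0.4671% in the controls. The groups did not overlap, and the means were 0.623% ± 0.000651 and 0.464% ± 0.00316 (SD, n = 3). All 3 C6-AQP1 libraries exceeded all 3 controls for 179 members (75.8%, against 41.3% of all listed genes) and fell below them for 24 members (10.2%, against 41.3%), and the groups overlapped for the other 33.

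The median fold change was larger in members with fewer counts. Ordered by mean CPM, the lowest of 3 equal bins of members (0.0944 to 7.18 CPM) had a median log2 fold change of 0.76, the middle bin 0.50 and the highest bin (21.2 to 181 CPM) 0.28. Other listed genes in the same 3 ranges had medians of 0.27, 0.04 and -0.07. Members rose in 78.5%, 78.2% and 72.2% of cases, and other genes in 44.5%, 42% and 39.1%. For fold changes above 2 upward, the lowest bin had 29.1% of the members and 24% of the other genes, the middle bin 23.1% and 9.77%, and the highest bin 12.7% and 4.82%. Across the 236 members, Spearman's rho between log2 mean CPM and log2 fold change was -0.35 and Pearson's r was -0.30, and across all listed genes they were -0.16 and -0.17. These are descriptions over genes measured in the same 6 libraries, and genes are not independent replicates. A gene was listed when either group had a mean TPM above 1, so low genes could enter through their higher group alone. The part of this filter in the trend was not tested.

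**Figure D2:**
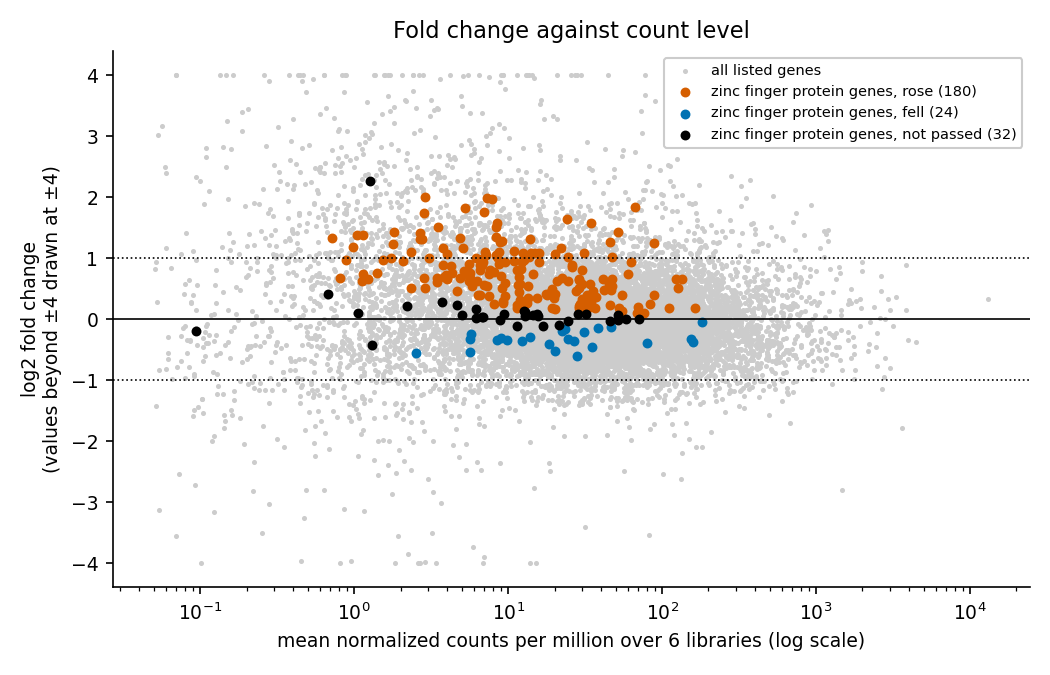
Log2 fold change against the mean normalized CPM over 6 libraries (log scale) for all listed genes (grey) and the zinc finger protein genes that rose (orange, 180), fell (blue, 24) or did not pass the test (black, 32). Orange points lie above 0 over the whole range of counts and no member lies below the lower dotted line at 2-fold.

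Members near the 2-fold line show how the count of DEGs depends on it. Zfp879 lay just inside, with a log2 fold change of 1.00 (2.01-fold), and Zfp39 just outside, with 1.00 as well (1.999-fold). For 21 members the whole 95% interval of the log2 fold change lay above 1. None of the 24 falls had an interval reaching -1, and the lowest bound was -0.88.

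Promoters are shown for 4 members: the largest rise, the largest fall, Zfp36 as the rise of known RNA decay function, and Zfp367 as a fall with an E2F-type match. RefSeq promoters of the GRCr8 assembly, from 250 bases before to 50 bases after the start, matched 196 members, 28 of them with several starts, of which the first listed was taken. Capitals mark matches on either strand to the letters of 11 motifs: the GC box GGGCGG, the MAZ-type GGGAGGG, the CRE spelled TGACGTCA, the ETS-type CCGGAAG, the E2F-type TTTCCCGC together with TTTGGCGC, the CCAAT box, the TATA box spelled TATAAA, the FOXO-type GTAAACA and the longer NRF1 and ZNF143 motifs. The sequences read 5′ to 3′ on the strand of the gene. They lie at chr12:22147378-22147677 (minus strand, Zfp113), chr1:92799059-92799358 (minus strand, Zfp36), chr1:191294280-191294579 (plus strand, Zfp771) and chr17:970646-970945 (plus strand, Zfp367).
Zfp113: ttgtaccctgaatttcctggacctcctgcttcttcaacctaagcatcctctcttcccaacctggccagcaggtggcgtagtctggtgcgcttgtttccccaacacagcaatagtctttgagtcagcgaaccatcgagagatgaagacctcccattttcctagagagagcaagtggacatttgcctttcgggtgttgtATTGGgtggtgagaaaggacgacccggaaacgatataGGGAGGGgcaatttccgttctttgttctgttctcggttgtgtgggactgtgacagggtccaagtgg
Zfp36: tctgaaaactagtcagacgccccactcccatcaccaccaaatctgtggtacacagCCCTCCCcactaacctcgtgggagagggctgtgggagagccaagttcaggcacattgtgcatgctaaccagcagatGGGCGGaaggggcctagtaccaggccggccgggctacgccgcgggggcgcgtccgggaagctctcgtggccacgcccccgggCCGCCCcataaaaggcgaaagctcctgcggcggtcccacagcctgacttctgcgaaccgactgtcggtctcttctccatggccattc
Zfp771: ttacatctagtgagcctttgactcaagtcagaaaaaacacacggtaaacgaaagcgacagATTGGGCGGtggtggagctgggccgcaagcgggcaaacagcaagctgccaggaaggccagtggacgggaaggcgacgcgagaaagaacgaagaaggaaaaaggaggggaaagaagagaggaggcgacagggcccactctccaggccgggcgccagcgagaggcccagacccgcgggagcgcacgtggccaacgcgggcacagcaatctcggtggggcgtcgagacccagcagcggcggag
Zfp367: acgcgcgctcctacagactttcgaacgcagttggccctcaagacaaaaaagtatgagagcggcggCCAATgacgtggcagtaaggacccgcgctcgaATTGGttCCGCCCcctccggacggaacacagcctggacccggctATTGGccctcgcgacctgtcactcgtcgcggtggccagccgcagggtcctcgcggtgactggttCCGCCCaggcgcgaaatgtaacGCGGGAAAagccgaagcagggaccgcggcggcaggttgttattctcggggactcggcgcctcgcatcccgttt

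The Zfp113 promoter had a MAZ-type match starting 16 bases before the start and a reversed CCAAT 53 bases before it. That of Zfp36 had 2 GC boxes and a reversed MAZ-type match, and that of Zfp771 a reversed CCAAT that overlaps a GC box. That of Zfp367 had 3 CCAAT matches, 2 GC boxes and a reversed TTTCCCGC 23 bases before the start. A match of letters is a description and shows no binding.

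Among the largest rises, the 3 libraries of a group lay close together in most genes. Zfp113 had 5.12, 4.80 and 3.85 CPM in the C6-AQP1 libraries and 1.57, 1.10 and 0.90 CPM in the controls, a log2 fold change of 2.01 with a standard error of 0.18 (adjusted p = 2e-09). Zfp606, a KRAB zinc finger gene, had 13.52, 11.97 and 12.27 CPM in C6-AQP1 and 2.92, 3.36 and 3.19 CPM in control libraries, a log2 fold change of 1.97 with a standard error of 0.10 (adjusted p = 3.6e-14). The groups of both genes did not overlap, which was a condition for naming any gene among the largest rises.

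Zfp36 encodes tristetraprolin, which binds AU-rich elements of short-lived messages and brings about their decay through a CCCH fold and not C2H2 fingers. It had 99.6, 107 and 105.5 CPM in C6-AQP1 and 27.8, 29.5 and 29.9 CPM in control libraries, a log2 fold change of 1.83 with a standard error of 0.04 (adjusted p = 6.8e-21). Its relatives outside the naming pattern went separate ways: Zfp36l1 had a log2 fold change of 1.74, and Zfp36l2, named after its values were seen, one of -0.45 (adjusted p = 2.4e-13).

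Zfp169 and Zfp12, both KRAB zinc finger genes, had log2 fold changes of 1.82 and 1.75. Zfp169 had 7.78, 8.55 and 8.13 CPM in C6-AQP1 and 2.38, 2.24 and 2.37 CPM in control libraries. Zfp12 had 10.9, 10.4 and 10.9 CPM against 3.006, 3.035 and 3.442 CPM. Zfp192, now named Zkscan8 and carrying a SCAN and a KRAB domain, had 36.7, 37.5 and 36.2 CPM against 11.2, 11.7 and 12.2 CPM, a log2 fold change of 1.64 with a standard error of 0.05 (adjusted p = 2.2e-17). Groups without overlap were a condition for naming these 3 genes among the largest rises.

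Zfp280c, known for limiting the resection of broken DNA ends, had 49.5, 53.9 and 51.7 CPM in C6-AQP1 and 17.3, 17.5 and 17.5 CPM in control libraries, a log2 fold change of 1.57 with a standard error of 0.04 (adjusted p = 2.3e-18). Zfp54 and Zfp612 had log2 fold changes of 1.75 and 1.58. Zfp383 is less certain than the others: it had 13.9, 9.33 and 12.3 CPM in C6-AQP1 and 0.673, 3.11 and 4.20 CPM in control libraries, with 15 counts in control replicate 1 against 161 and 215 in the other controls. Its log2 fold change was 1.98 (standard error 0.51, adjusted p = 0.021), and it no longer passed once C6-AQP1 replicate 1 was left out (adjusted p = 0.055), nor without C6-AQP1 replicate 3 (0.068) or control replicate 2 (0.068), nor with a replicate block (0.09).

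No fall reached 2-fold. Zfp771 had the largest, with 21.0, 21.9 and 23.7 CPM in C6-AQP1 and 31.5, 32.7 and 36.7 CPM in control libraries, a log2 fold change of -0.60 with a standard error of 0.06 (adjusted p = 3.9e-08). Zfp688, Zfp524 and Zfp637 followed with log2 fold changes of -0.55, -0.54 and -0.53. Zfp259, now named Zpr1 and known as a partner of the SMN complex, had a log2 fold change of -0.46, and Zfp414 one of -0.41. Zfp367 had 71.96, 65.42 and 69.24 CPM against 90.3, 91.9 and 88.8 CPM, a log2 fold change of -0.40 with a standard error of 0.03 (adjusted p = 4.1e-10). Zfp511 and Zfp64 had log2 fold changes of -0.36 each. In all of these the C6-AQP1 libraries lay below the controls, which was a condition for naming them among the largest falls.

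**Figure D3:**
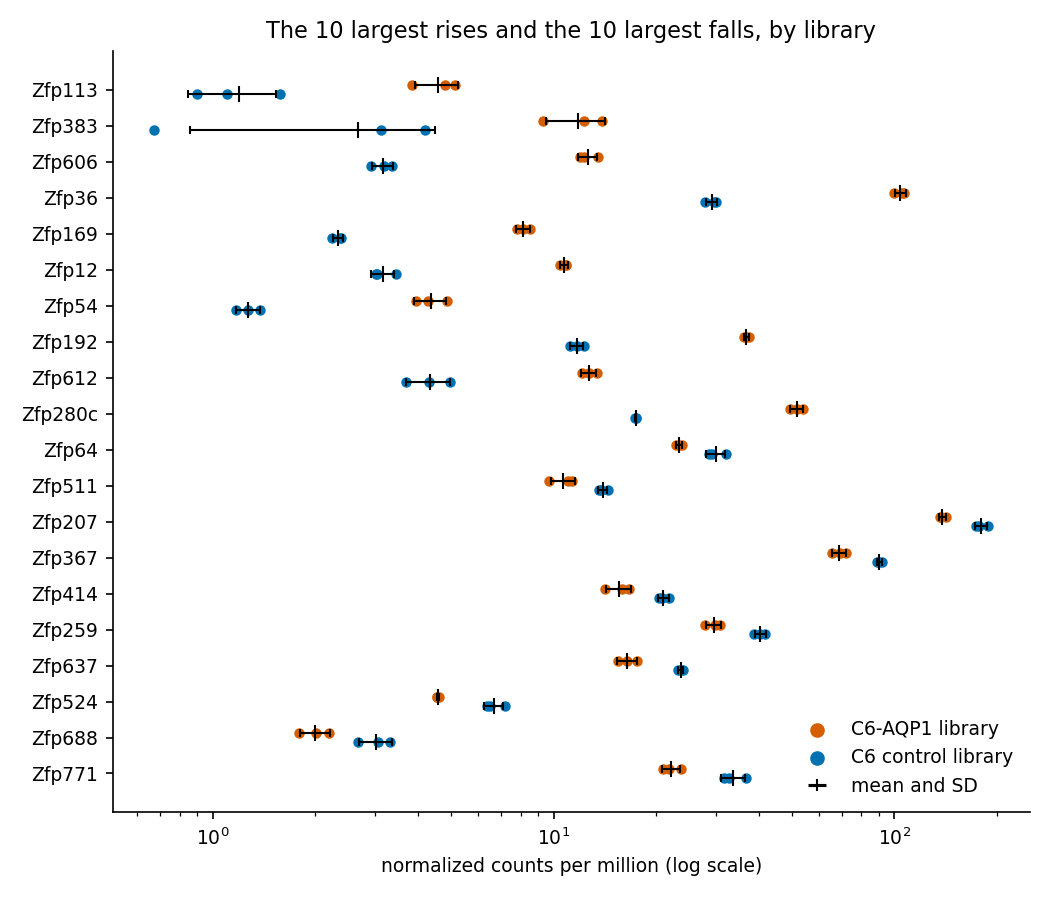
Normalized CPM (log scale) of the 10 zinc finger protein genes that rose most and the 10 that fell most, with 1 point per library and black bars for mean and SD within each group (n = 3). Genes were picked for groups that do not overlap, and the widest spread is that of Zfp383 in the control libraries.

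Members with the most counts were not the ones with large rises. Zfp91, an E3 ubiquitin ligase, had a log2 fold change of -0.05 (95% interval -0.10 to -0.01, adjusted p = 0.027), a call that 10 of the alternatives ended. Zfp106, an RNA-binding protein of nerve and muscle, had 0.19. Zfp207, which brings Bub3 to kinetochores and spindles, had 136, 142 and 137 CPM in C6-AQP1 and 188, 178 and 174 CPM in control libraries, a log2 fold change of -0.37 with a standard error of 0.03 (adjusted p = 2.4e-10). Zfp706 had a log2 fold change of -0.32.

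Some well-counted members differed little between the groups. Zfp260 had 73.0, 69.3 and 70.3 CPM in C6-AQP1 and 67.3, 71.7 and 71.9 CPM in control libraries, a log2 fold change of 0.00 (95% interval -0.07 to 0.07). Zfp384 had 0.01 (-0.06 to 0.07), Zfp444 -0.01 (-0.08 to 0.07) and Zfp407 -0.03 (-0.13 to 0.08). The libraries of the 2 groups overlapped in Zfp260, Zfp384, Zfp444 and Zfp407.

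Of the members with a neural or mesenchymal role, 8 of the 8 that were listed rose, beside 76.3% of the whole family. Their median log2 fold change was 0.40, below the 0.56 of the whole family. Zfp462, which acts in stem cell and neural development, had 123, 128 and 124 CPM in C6-AQP1 and 53.3, 52.1 and 52.7 CPM in control libraries, a log2 fold change of 1.25 with a standard error of 0.03 (adjusted p = 8.5e-20). Zfp703, a corepressor of the NET family that is amplified in breast cancer, had 29.8, 29.7 and 32.1 CPM against 13.4, 12.9 and 14.4 CPM, a log2 fold change of 1.17. Its relative Zfp503 had 0.27. Zfp335, a microcephaly gene, had 0.47, and Zfp521 and Zfp536, which act on neural fate and neuronal differentiation, both had 0.40. Zfp24, needed for myelination by oligodendrocytes, had 0.23, and Zfp365 had 0.10 with overlapping groups, a call that ended with DESeq2 (adjusted p = 0.089), without C6-AQP1 replicate 2 (0.15), C6-AQP1 replicate 3 (0.13) or control replicate 2 (0.098), and after thinning (0.069). The summed neuronal markers and the summed glial markers were also higher in C6-AQP1 cells, with the values given above, and their part in this was not tested.

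Of 9 listed members that act in heterochromatin, imprinting or corepressor complexes, 7 rose, 0 fell and 2 did not pass. Their median log2 fold change was 0.40, beside 76.3% rises, 10.2% falls and a median of 0.56 in the whole family. Zfp217, an oncogene whose product sits in CoREST complexes, had 61.3, 67.4 and 61.6 CPM in C6-AQP1 and 32.2, 32.3 and 29.9 CPM in control libraries, a log2 fold change of 1.02 with a standard error of 0.04 (adjusted p = 1.1e-14). Zfp445, a guardian of imprints, had 0.88. Zfp57, the other imprint factor of the list, had 2.38 ± 0.0713 and 2.02 ± 0.295 CPM (SD, n = 3), with a log2 fold change of 0.22 that did not pass (adjusted p = 0.22). Zfp687, Zfp532 and Zfp592, which share a complex with Zmynd8, had log2 fold changes of 0.65, 0.40 and 0.39, and Zmynd8 itself, which is no member, had 1.32. Zfp827, which brings NuRD to telomeres, and Zfp518b had 0.41 and 0.32. Zfp644, a partner of the G9a methyltransferase, had 0.09 and did not pass (adjusted p = 0.083).

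The 11 listed members that bind RNA or act on ribosomes counted 8 rises, 1 fall and 2 that did not pass, with a median log2 fold change of 0.21. Over the whole family 76.3% rose and 10.2% fell, with a median of 0.56. Beside Zfp36, Zfp346, which binds double-stranded RNA, reached 2-fold, with a log2 fold change of 1.08 with a standard error of 0.07 (adjusted p = 3e-12). Zfp622, a maturation factor of the large ribosomal subunit, had 0.52, while Zfp593, another factor of that subunit, had -0.01 (95% interval -0.18 to 0.16). Zfp385a, an mRNA-binding partner of p53, had 0.51. The splicing factors Zfp326 and Zfp638 had 0.26 and 0.17. Zfp598, the ubiquitin ligase that senses collided ribosomes, had 0.21 with overlapping groups, and it did not pass with C6-AQP1 replicate 2 left out (adjusted p = 0.052). Zfp830, which acts in splicing and DNA repair, had 0.06 and did not pass, and the fall was that of Zfp207.

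Among 9 listed promoter-binding activators and GC-box factors 5 rose, 2 fell and 2 did not pass, with a median of 0.18 on the log2 scale. The family shares were 76.3% rises and 10.2% falls, with a median of 0.56. Znf740 had 82.1 ± 1.83 CPM in C6-AQP1 and 42.7 ± 0.529 CPM in control libraries (SD, n = 3), with a log2 fold change of 0.94. Of a pair of related factors that bind GC-rich promoters, Zfp281 had 0.81 and Zfp148 0.18. Zfp219 had 64.2, 81.1 and 80.2 CPM against 43.7, 45.4 and 47.3 CPM, a log2 fold change of 0.74 with a standard error of 0.10 (adjusted p = 0.0016), and C6-AQP1 replicate 1 was the lowest of its group. Zfp143, which acts at many housekeeping promoters, and Zfp410, the activator of the NuRD gene Chd4, fell with -0.16 and -0.15. The call of Zfp143 ended with library totals alone (adjusted p = 0.071), without control replicate 2 (0.063) and after thinning (0.072). Zfp131 had 0.07 and did not pass (adjusted p = 0.062), as did Zfp384.

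Of 7 listed members linked to the cell cycle or DNA damage, 3 rose, 2 fell and 2 did not pass, and their median was 0.06. In the whole family 76.3% rose and 10.2% fell, with a median of 0.56. Beside Zfp280c with its log2 fold change of 1.57, its relative Zfp280b had 0.24 (adjusted p = 0.016), a call that ended with DESeq2 (0.055) and without C6-AQP1 replicate 2 (0.071) or control replicate 3 (0.07). Zfp668, a regulator of p53, had 0.03 (95% interval -0.17 to 0.24). The 3 ligases of ubiquitin or SUMO, Zfp598, Zfp451 and Zfp91, all stayed within a log2 fold change of 0.21, and Zfp451, a SUMO ligase, had 0.17.

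A list of KRAB partners and other chromatin factors is called KRAB corepressors here. Of its 35 listed genes (34 symbols), 14 rose, 16 fell and 5 did not pass, beside 40.8% rises and 40.7% falls among all listed genes. The median log2 fold change of the list was -0.04, which became 0.02 when counts were scaled by library totals alone. Trim28, the common partner of KRAB domains, had 245 ± 4.58 CPM in C6-AQP1 and 341 ± 6.09 CPM in control libraries (SD, n = 3), with a log2 fold change of -0.48 with a standard error of 0.02 (adjusted p = 1e-14). Setdb1, the methyltransferase, had 0.23 (standard error 0.04, adjusted p = 5e-06). Uhrf1, which keeps DNA methylation through replication, had the largest fall of the list, -1.07, followed by Mbd3 with -0.76, the heterochromatin protein gene Cbx3 with -0.69 and the histone-binding Rbbp7 with -0.67. The NuRD subunit gene Gatad2b had the largest rise, 0.71.

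Genes of other C2H2 factors also counted more rises than falls, while all listed genes had 40.8% rises, 40.7% falls and 9.74% higher DEGs. Of 45 Zbtb, Zkscan and Zscan genes, 38 rose and 3 fell, with a median log2 fold change of 0.62 and 8 DEGs, all higher. Zbtb20, an astrocyte and hippocampal regulator, led them with 92.5 ± 0.827 CPM in C6-AQP1 and 22.0 ± 0.174 CPM in control libraries (SD, n = 3), with a log2 fold change of 2.08. Zbtb37, Zscan2, Zbtb40 and Zbtb43 had 2.03, 1.81, 1.512 and 1.501. Of 39 other C2H2 regulators 32 rose and 4 fell, with a median of 0.52. In that list the immediate early genes Egr3 and Egr2 had 2.05 and 2.02, Mzf1 1.75, Prdm9 1.68, Plag1 1.59, and Maz fell with -0.32 (adjusted p = 4.4e-08). Of 17 Klf and Sp genes 9 rose and 3 fell, with a median of 0.40, led by Klf15 with 1.42 and Klf6, Klf7, Klf2 and Klf12 between 0.76 and 0.91.

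Genes named for other zinc folds had medians from -0.10 to 0.44. Among all listed genes 40.8% rose and 40.7% fell. The 15 CCCH genes had 9 rises and 4 falls with a median of 0.20, of which Zc3h8, Zc3h10 and Zc3h7a had 0.79, 0.70 and 0.48 and Zc3h15 -0.55. The 19 palmitoyltransferase genes of the Zdhhc series had 6 rises and 9 falls with a median of -0.10, from Zdhhc8 and Zdhhc9 with 0.63 and 0.57 to Zdhhc6, Zdhhc12 and Zdhhc13 with -0.61, -0.78 and -0.87. The 8 Zfyve genes of endosomal adaptors had 5 rises and 1 fall with a median of 0.38, led by Zfyve28 with 1.44. The 11 Zcchc genes had 7 rises and 3 falls with a median of 0.33, led by Zcchc3 with 1.08, and the 10 Zmynd and Zmym genes 8 rises and 1 fall with a median of 0.44, between Zmynd10 with 1.45 and Zmynd19 with -0.95. The lists are of unequal size and no difference between them was tested.

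**Figure D4:**
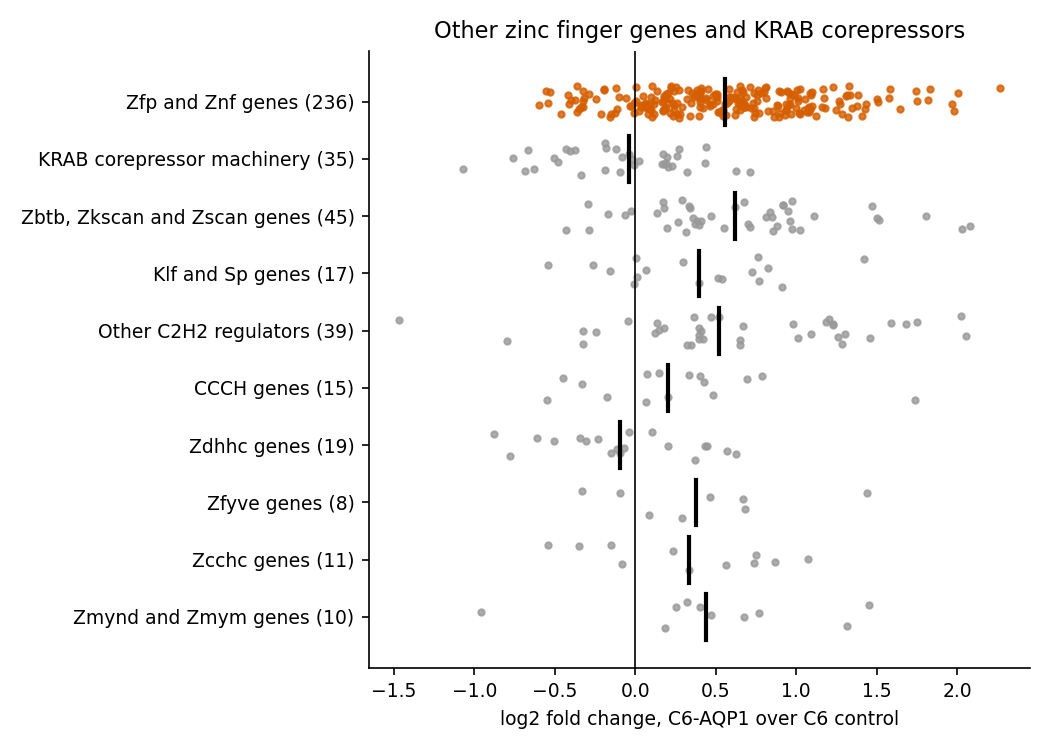
Log2 fold changes of the zinc finger protein genes (orange) and of lists of other zinc finger genes and KRAB corepressors (grey), with 1 point per gene, a black bar at each median and the number of genes in brackets. The medians are 0.56 for Zfp and Znf genes, 0.62 for Zbtb, Zkscan and Zscan genes, -0.04 for KRAB corepressors and -0.10 for Zdhhc genes.

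By symbol, 224 members matched the RefSeq annotation directly and 8 through an older name, and all 232 could be placed in gene order. There were 18 runs of at least 3 members with at most 2 other protein-coding genes between neighbours, and they held 69 members. Of these 54 rose, 3 fell and 12 did not pass, with a median log2 fold change of 0.69. For comparison, 76.3% of the whole family rose and 10.2% fell, and 40.8% and 40.7% of all listed genes. The 38 members in pairs had 30 rises, 4 falls and a median of 0.61, and the other 125 placed members had 92 rises, 17 falls and a median of 0.44. Every member rose in 9 runs, no member fell in 15 and rises stood beside falls in 3. The range of log2 fold changes inside a run went from 0.24, in the run of Zfp597, Zfp174 and Zfp263, to 1.89. Neighbours of a run often share sequence, so RSEM may divide reads between them and their values are not independent.

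In the run of Zfp54, Zfp51, Zfp53 and Zfp52 the log2 fold changes were 1.75, 0.62, 1.31 and 0.54. The run of Znf768, Zfp764 and Zfp688 spanned 1.89 on the log2 scale, since Znf768 had 0.07, Zfp764 had 1.33 (adjusted p = 4.3e-04, with 4 to 30 counts in the control libraries) and Zfp688 fell. In the run of Zfp580, Zfp865, Zfp524 and Zfp579, the sign of the difference alternated, with -0.42 (adjusted p = 0.056), 0.90, -0.54 and 0.90. The largest run, of 9 members, was singled out after its values were seen. Its outer genes Zfp786, Zfp398, Zfp467 and Zfp862 had 1.41, 1.34, 1.31 and 1.504, Zfp282 had 0.40 and Zfp212 -0.35, and Zfp956, Zfp777 and Zfp746 did not pass.

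**Figure D5:**
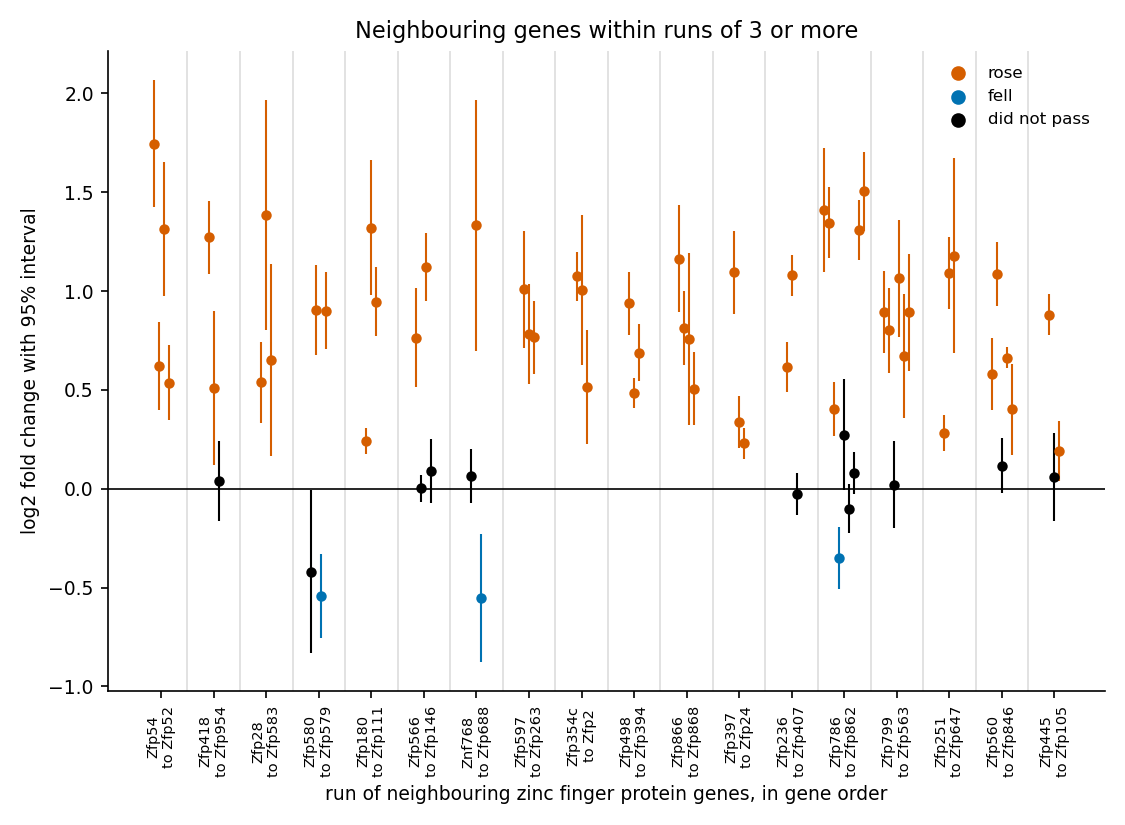
Log2 fold changes of the 69 members that lie in 18 runs of neighbouring zinc finger protein genes, in gene order, with 95% intervals. The range inside a run goes from 0.24 to 1.89, the latter in the run from Znf768 to Zfp688, and the 3 falls (blue) stand beside rises (orange).

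Members with shared sequence or few counts need care. The pair of genes named Zfp951 had identical counts in all 6 libraries (21, 48 and 42 in C6-AQP1, 26, 56 and 42 in control), and the one kept had a log2 fold change of 0.10. The second gene of Zfp866 had 1.18 beside 1.16 for the one kept, that of Zfp617 had 0.37 (adjusted p = 0.02) beside 0.22 (0.073), that of Zfp446 0.51 (0.072) beside 0.72, and that of Zfp780b had at most 3 counts in a library. In at least 1 library 11 members had under 20 counts. The 2 members with no count in 1 library, named here after their values were seen, were Zfp37, with 0 to 9 counts in every library, and Zfp939, with 37, 97 and 85 counts in C6-AQP1 and 12, 0 and 42 in control libraries. The log2 fold change of Zfp939 was 2.26, the highest of the family, with a standard error of 0.88 and an adjusted p of 0.069.

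Promoters of members were of middling GC content. The median was 57.7% over 196 members, 61.3% over the 8636 listed genes with a promoter and 52.3% over all 27457 genes with a promoter. It was 56.3% for the 39 DEGs among them, 57.8% for the other 104 rises, 58.7% for the 31 that did not pass and 58.3% for the 22 falls. A GC box was found in 48.5% of the members, 64.9% of listed genes and 34.9% of all promoters. GGGAGGG was found in 16.3%, 26.7% and 20.9%, and in 15.4% of the 39 DEGs, CCGGAAG in 20.4%, 18.7% and 9.22%, and CCAAT in 40.3%, 38.7% and 37.7%. For TATAAA the shares were 7.65%, 6.28% and 14.3%, for TGACGTCA 2.55%, 3.39% and 1.91%, for GTAAACA 2.04%, 2.21% and 3.76%, for the NRF1 motif 3.06%, 2.11% and 0.932%, for TTTGGCGC 1.53%, 0.961% and 0.521%, and for the ZNF143 motif 2.55%, 0.776% and 0.295%.

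TTTCCCGC was found in 7 of the 196 members (3.57%), in 2.26% of listed genes and in 1.03% of all promoters. The 7 were the falls Zfp414, Zfp367, Zfp64 and Zfp455, with log2 fold changes of -0.41, -0.40, -0.36 and -0.33, the members Zfp628 and Zfp644, which did not pass, and the rise Zfp512, with 0.33. It was thus in 4 of 22 falls, 1 of 104 rises under 2-fold, 0 of the 39 DEGs and 2 of the 31 members that did not pass. The other E2F-type motif, TTTGGCGC, was in 0 of 22, 0 of 104, 1 of 39 and 2 of 31. The motifs were chosen after the fold changes were known and these shares were not tested.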

How the data were processed

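RNA of C6 cells was sequenced in 3 C6-AQP1 and 3 C6 control libraries. The submitters' processing notes and the methods name FastQC (0.11.2), Trimmomatic (0.36), STAR (2.5.1b) with the rn6 genome and RSEM (1.2.29). No source used here names the gene annotation. The authors deposited the expected counts of RSEM, without normalization, for genes with a mean TPM above 1 in a group. RSEM divides reads that fit several genes among them.

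The expected counts were rounded and fitted in edgeR 4.0.16 (R 4.3.3) with TMM factors, robust quasi-likelihood tests and Benjamini-Hochberg adjustment over all 12121 genes. Every adjusted p in the text comes from that fit unless another tool is named. CPM are scaled by TMM, and ratios to the control mean add 0.1 CPM. Members that passed at an adjusted p under 0.05 rose or fell, and DEGs also had a fold change above 2. DESeq2 1.42.0, limma-voom (limma 3.58.1) and other settings served as alternatives. All 3 tools were tested on simulated data. The common coefficient of biological variation was 2.97%, and replicates differed by more than sampling noise (chi-square per degree of freedom 2.15 to 4.29).

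Named genes were the 10 largest rises and falls without overlap and with at least 20 counts in each library of the higher group, all members of the role groups, the 4 with the most counts, the 4 smallest changes with at least 200 counts in every library, members at the 2-fold line, neighbours of named genes and up to 5 genes of each other list. The members and lists were chosen with earlier results of these data known. Protein classes, planned as finger and KRAB counts, were not analysed here because no protein sequences were used. The result of 1 marker list is not reported here.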

Additional observations from a re-analysis of the deposited data

How the results depend on the processing

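The direction of the family held under every alternative tried. Over the DESeq2, limma-voom, scaling, filter, block and thinning alternatives, between 174 and 187 members rose, 20 to 24 fell, 50 to 59 were higher DEGs and 0 were lower DEGs. No rise turned into a fall or the reverse in any of them. The median log2 fold change of 0.56 became 0.59 with upper-quartile factors and 0.61 with library totals alone, where the median of all genes moved to 0.04 and 0.06. Leaving out 1 library at a time gave medians of 0.54 to 0.56, 174 to 181 rises and interquartile ranges of 0.75 to 0.80. The interquartile range of 0.77 was 0.74 without both replicate 1 libraries, where 180 members rose, 24 fell and 47 were higher DEGs, and 0.81 after thinning to the smallest total; thinning adds counting error to low genes by construction. Keeping every gene of a repeated symbol changed no count by over 1.5 times, but it added only 5 genes to 236, too few for such a change. The median of KRAB corepressors was reversed, at 0.018, with library totals alone.

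A replicate block gave 179 rises, 24 falls and 51 higher DEGs with a median of 0.55. Deviations of same-numbered libraries correlated at 0.22, -0.03 and 0.16, so the numbers were not taken as pairs. C6-AQP1 replicate 2 correlated best with control replicate 3 (0.17), so not every library matched its own number.

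Among the named members, calls of Zfp91, Zfp365, Zfp143, Zfp280b, Zfp383, Zfp451 and Zfp598 ended under at least 1 alternative. Those of Zfp131, Zfp644 and Zfp580 were gained. Calls of members not named here ended as well. Over the whole family, thinning kept the fewest calls, with 172 of the 180 rises and 20 of the 24 falls. Depth limits the members with few counts: in control replicate 1, 10 members had under 20 counts.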
